A study of Mus musculus with 6 samples.

Results

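The osteocyte genes described here are Sost, Mepe, Dmp1, Phex, Pdpn and Fam20c, measured in wild-type and Frzb-/- mice in the bone under the knee cartilage of the tibia together with that cartilage. They were taken by name, as all probe sets that the array's annotation gives to 1 of these 6 genes alone, which are 10 of the 30618 probe sets and 6 of the 13817 genes measured. The 6 mice were males of 6 weeks on the C57Bl/6J background, and each gave RNA of a single joint to 1 Affymetrix array. Cartilage, bone, the marrow inside it and the top of the growth plate were not separated, so each array read all of them together. The wild-type group held 3 mice, animals 6-1, 8-1 and 9-1. The other 3 mice were labelled Frzb-/-, which means that they lack frizzled-related protein, a secreted WNT antagonist, in the whole animal and not in bone alone. In the study a labelled mouse whose transcriptome grouped with wild-type was re-genotyped as heterozygous and left out. Its number is not stated, and on these arrays animal 6 is the one that lies near wild-type. Animals 14 and 17 are taken here as the Frzb-/- group and animal 6 is shown apart.

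The targeted gene was low on all 3 labelled arrays. At its brighter probe set Frzb had log2 values of 10.02, 10.79 and 10.16 in wild-type animals 6-1, 8-1 and 9-1, of 7.02 and 6.42 in animals 14 and 17, and of 6.93 in animal 6. Over all probe sets, however, animal 6 resembled the wild-type arrays (Pearson's r of 0.983 to 0.991) more than those of animals 14 and 17 (0.957 and 0.940). The Frzb level of animal 6 and its remaining transcriptome therefore pointed to different groups, and the fold changes of the osteocyte genes are also given with this array added. The p-values measure the spread between single joints of different mice.

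Osteocytes are osteoblasts that became buried in the matrix they made. They sense load and control bone formation through secreted proteins, of which sclerostin, the product of Sost, is the best known. Sclerostin binds the WNT co-receptors LRP5 and LRP6 and so restrains bone formation, which makes it an antagonist of the same pathway as Frzb. Mepe and Dmp1 encode acidic matrix proteins of the SIBLING family, whose genes lie together on 1 chromosome. Phex encodes a membrane endopeptidase that protects MEPE from cleavage into peptides that block mineral, and loss of Phex or Dmp1 causes phosphate wasting through FGF23. Fam20c encodes the Golgi kinase that phosphorylates SIBLING proteins, and Pdpn encodes podoplanin (E11), a membrane protein of young osteocytes that are growing dendrites. Pdpn is also made by synovial fibroblasts and lymphatic endothelium, and Fam20c by many cell types.

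In the Frzb-/- mice Sost and Mepe were lower and Pdpn was higher, while Dmp1, Phex and Fam20c did not pass the test. Sost was 5.95-fold lower and Mepe 3.00-fold lower, and Pdpn was 2.35-fold higher. Values are log2 RMA expression values, which can be compared between arrays at the same probe set but not between genes. A probe set was called when limma gave a Benjamini-Hochberg adjusted p under 0.01 over all 30618 probe sets and an absolute log2 fold change above 1. Of all genes, each at its brightest probe set, 6.02% were called lower and 3.03% higher, against 2 and 1 of the 6 osteocyte genes. Of all probe sets 5.09% were called lower and 2.34% higher, against 2 and 1 of the 10 probe sets. In bulk tissue fewer cells of a type and less RNA per cell cannot be told apart.

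The sequence just before the start of the 3 called genes is shown because they moved in different directions. Each window holds the 150 bases before the start in RefSeq (GRCm38.p6), read 5′ to 3′ on the gene's strand. It lies at chr11:101967016-101967165 on the minus strand for Sost, at chr5:104325179-104325328 on the plus strand for Mepe, and at chr4:143299565-143299714 on the minus strand for Pdpn. Capitals mark matches, on either strand, to a TCF/LEF motif (CTTTG followed by AA, AT, TA or TT), to the RUNX core TGTGGT or to TTTAAA, a palindrome that was added after the sequences had been seen.
Sost: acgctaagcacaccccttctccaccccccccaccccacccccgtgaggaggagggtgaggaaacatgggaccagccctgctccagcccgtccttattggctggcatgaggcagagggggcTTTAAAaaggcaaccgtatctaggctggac
Mepe: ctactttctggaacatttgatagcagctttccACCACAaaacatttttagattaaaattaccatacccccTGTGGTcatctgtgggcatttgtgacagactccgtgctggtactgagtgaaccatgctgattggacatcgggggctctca
Pdpn: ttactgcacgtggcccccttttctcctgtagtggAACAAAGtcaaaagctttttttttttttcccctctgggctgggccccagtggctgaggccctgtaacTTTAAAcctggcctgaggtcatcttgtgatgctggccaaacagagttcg

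Counted from the start, where -1 is the base before it, TTTAAA began at -30 in Sost and at -49 in Pdpn. The RUNX core stood at -118 and -80 in Mepe, and the TCF/LEF letters at -116 in Pdpn. Windows of this length held the TCF/LEF letters in 8.4%, the RUNX core in 8.4% and TTTAAA in 6.75% of the 32851 promoters of the table. TTTAAA also stood at -56 in Phex and at -31 in the second of 2 starts of Dmp1, while the windows of Fam20c and of the first start of Dmp1 held none of the 3 motifs. These are matches of letters in short windows and say nothing about binding.

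Sost had log2 values of 9.51, 9.70 and 8.90 in wild-type animals 6-1, 8-1 and 9-1 and of 6.62 and 6.97 in animals 14 and 17. Both Frzb-/- arrays thus lay far below the lowest wild-type array. The wild-type mean was 9.37 ± 0.42 (SD, n = 3) and the Frzb-/- mean 6.79 ± 0.25 (SD, n = 2), which gave a log2 fold change of -2.57 (standard error 0.25, 95% interval -3.16 to -1.98, adjusted p = 0.00124). It was the 115th most negative fold change of the 30618 probe sets. When animal 17 was left out, Sost was still lower by a log2 fold change of -2.75, but its adjusted p of 0.0108 did not pass, and that fit holds 1 Frzb-/- array whose spread is taken from the wild-type mice.

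Mepe had log2 values of 9.26, 9.46 and 9.14 in animals 6-1, 8-1 and 9-1 and of 7.86 and 7.55 in animals 14 and 17. The 2 groups were separated by more than the spread within either. The log2 fold change was -1.59 (standard error 0.16, 95% interval -1.95 to -1.22, adjusted p = 0.00127). Without animal 17 it was -1.43 with an adjusted p of 0.0114, which did not pass.

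Pdpn moved the other way. Its log2 values were 9.08, 9.07 and 8.82 in animals 6-1, 8-1 and 9-1 and 10.29 and 10.15 in animals 14 and 17, so that both Frzb-/- arrays exceeded all wild-type arrays by over 1 log2 unit. The log2 fold change was 1.23 (standard error 0.14, 95% interval 0.91 to 1.56, adjusted p = 0.00168). Without animal 14 or animal 17 the adjusted p was 0.0104 and 0.0124, neither of which passed, at log2 fold changes of 1.16 and 1.31. Without animal 17 none of the 6 genes was thus called by limma, and 4 had an unadjusted p under 0.05, as did 33.8% of all genes.

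**Figure D1:**
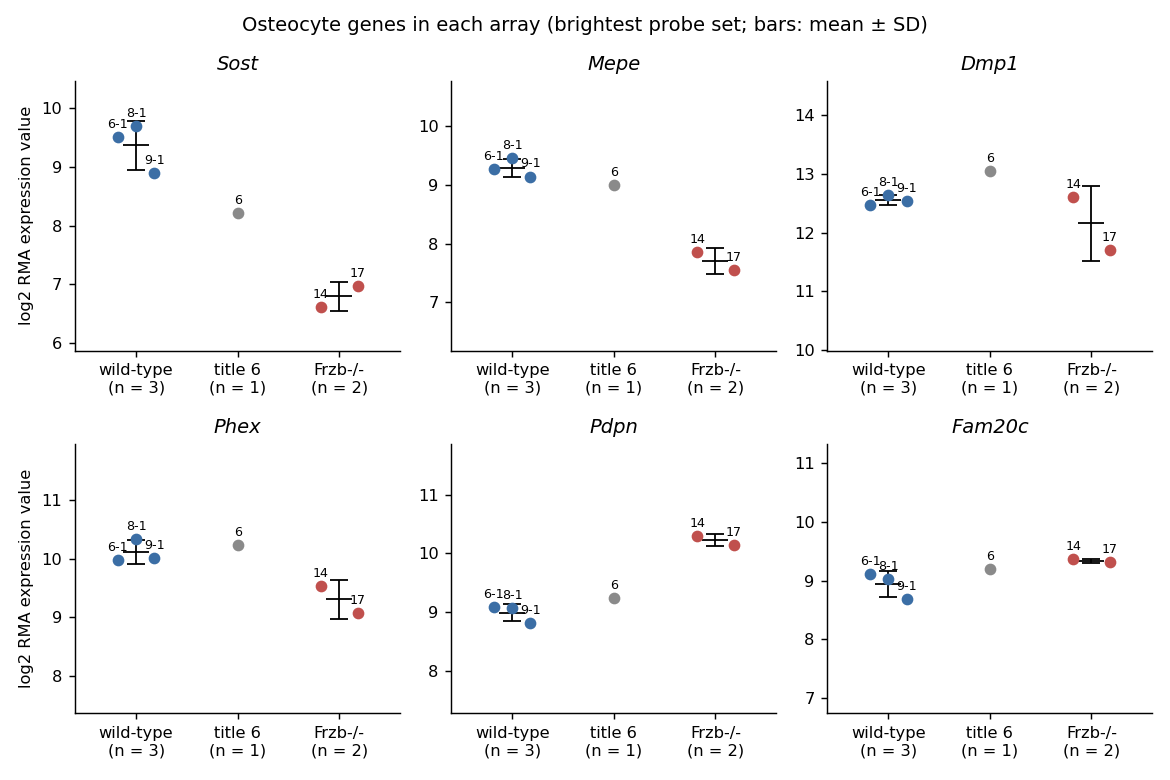
Log2 RMA expression value (vertical axes, all spanning the same range) of each osteocyte gene at its brightest probe set in the 3 wild-type arrays, in animal 6 and in the 2 Frzb-/- arrays, with the animal above each point and bars for mean ± SD. Sost and Mepe are lower in animals 14 and 17 and Pdpn is higher, while the 2 Frzb-/- arrays lie apart for Dmp1, at 12.61 and 11.71.

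Dmp1 is read by 3 probe sets, and none was called. At the brightest, the log2 values were 12.47, 12.64 and 12.54 in animals 6-1, 8-1 and 9-1 and 12.61 and 11.71 in animals 14 and 17. Animal 14 thus lay within the wild-type range and animal 17 below it, and the SD was 0.63 (n = 2) against 0.09 (n = 3) in wild-type mice. The log2 fold change was -0.39 (standard error 0.25, 95% interval -0.98 to 0.20, adjusted p = 0.294), and it was 0.0588 (adjusted p = 0.839) without animal 17 and -0.84 (adjusted p = 0.017) without animal 14. The other probe sets gave -0.50 (adjusted p = 0.248) and -0.47 (adjusted p = 0.173), with intervals of -1.19 to 0.19 and -1.01 to 0.07.

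Phex had log2 values of 9.98, 10.34 and 10.02 in animals 6-1, 8-1 and 9-1 and of 9.54 and 9.08 in animals 14 and 17. The groups did not overlap, but 28.1% of all genes had both Frzb-/- arrays below all wild-type arrays. The log2 fold change was -0.81 (standard error 0.19, 95% interval -1.25 to -0.36, adjusted p = 0.0209), short of both thresholds. It passed, at -1.02 with an adjusted p of 0.00199, when each array was centred on its osteoblast markers, and over all alternatives the adjusted p ranged from 0.00199 to 0.485.

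Fam20c is also read by 3 probe sets, and none was called. At the brightest its log2 values were 9.11, 9.03 and 8.69 in animals 6-1, 8-1 and 9-1 and 9.37 and 9.31 in animals 14 and 17. The Frzb-/- arrays were above the wild-type arrays at each of the 3 probe sets, as they were for 31% of all genes. The log2 fold changes were 0.39, 0.39 and 0.34, with adjusted p of 0.108, 0.0529 and 0.117. The third probe set was dim, with 3.71 ± 0.13 (SD, n = 3) in wild-type mice, where the medians of the arrays were 7.32 to 7.45. The authors removed absent probe sets before deposit, but the files do not say on which arrays a kept probe set was detected.

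**Figure D2:**
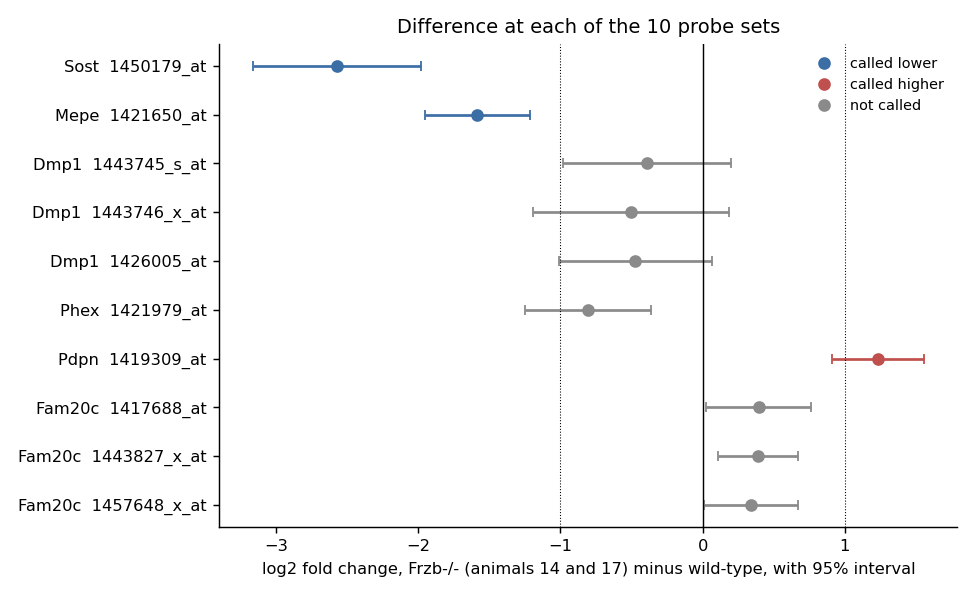
Log2 fold change of Frzb-/- (animals 14 and 17) minus wild-type mice with its 95% interval from limma at each of the 10 probe sets, with dotted lines at -1 and 1. The 3 probe sets of Dmp1 gave -0.39 to -0.50 and the 3 of Fam20c gave 0.34 to 0.39.

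The estimated changes differed between the osteocyte genes. A difference between genes on the same array is not altered when the whole array is shifted up or down. Sost minus Dmp1 averaged -3.18 ± 0.40 (SD, n = 3) on the wild-type arrays and -5.37 ± 0.88 (SD, n = 2) on the Frzb-/- arrays, a change of -2.18 log2 units. Sost minus Mepe changed by -0.99 and Mepe minus Dmp1 by -1.20, while Pdpn minus Fam20c changed by 0.84. Each of the 15 pairs of genes gave p = 0.1 in an exact permutation test on the absolute difference of means, and p = 0.2 when the smaller tail was doubled. These are the smallest p that 3 against 2 arrays allow, so that neither form can reach 0.05 for any pair. The pairs share their genes and are not independent, and the share of all gene pairs with the same p was not computed. Among single genes, 28.1% had both Frzb-/- arrays below all wild-type arrays and 31% had both above. The count of pairs alone therefore does not show how unusual these differences are.

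In animal 6, Sost was intermediate. Its log2 value of 8.22 lay below the lowest wild-type value of 8.90 and above the higher Frzb-/- value of 6.97. Relative to wild-type mice this was a difference of -1.15 (standard error 0.31, 95% interval -1.89 to -0.40), with an unadjusted p of 0.00843 and an adjusted p of 0.678 from limma, with a spread taken from the other arrays. Phex was 10.24 and lay within the wild-type range. Mepe at 8.99 lay just below that range, and Pdpn at 9.23 and Fam20c at 9.19 lay just above it, with differences from the wild-type mean of -0.30, 0.24 and 0.25. Dmp1 was 13.05 and above all other arrays at each of its 3 probe sets. In the same animal the hypertrophic chondrocyte marker Col10a1 was 13.05 against 11.39 ± 0.42 (SD, n = 3) in wild-type mice, and the median difference over 5 such markers was 0.58. Of the 4 skeletal muscle markers the median difference in animal 6 was -0.90. Their part in the values of animal 6 was not tested. Of the 6 genes, limma called 0 in animal 6 and 1 had an unadjusted p under 0.05, where 0% and 5.59% of all genes did. With 1 array even Frzb itself was not called there (-3.39, adjusted p = 0.091), so the lack of calls says nothing about the osteocyte genes.

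With animal 6 counted among the Frzb-/- mice, limma called 0 of the 30618 probe sets, hence none of the osteocyte genes. The log2 fold changes were then -2.10 for Sost, -1.16 for Mepe and 0.90 for Pdpn, with unadjusted p of 0.00235, 0.0173 and 0.0177 and an adjusted p of 0.428 for each. Phex was then -0.50 (adjusted p = 0.485), Dmp1 -0.09 (adjusted p = 0.912) and Fam20c 0.35 (adjusted p = 0.428). The directions were those found without animal 6.

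**Figure D3:**
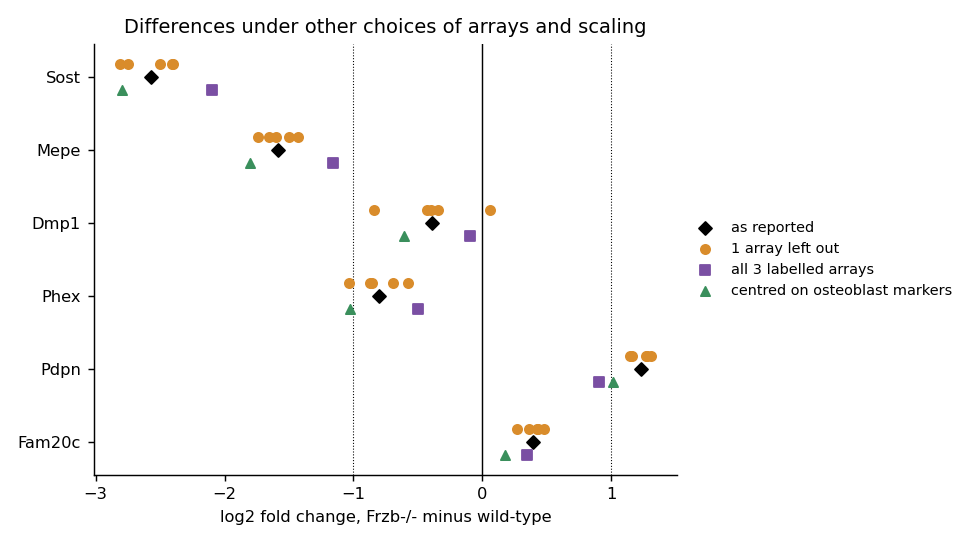
Log2 fold change (horizontal axis) of the 6 osteocyte genes as reported, with 1 array left out, with all 3 labelled arrays and after centring each array on its osteoblast markers, with dotted lines at -1 and 1. Sost stays between -2.81 and -2.10, and Dmp1 crosses 0 when animal 17 is left out.

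Of 13 other osteocyte genes measured, 1 was called lower and 0 higher, which is near the share of all genes called (6.02% and 3.03%), with a median log2 fold change of 0.16 against 0.04 over all genes. The one that fell was Dkk1, which like sclerostin blocks LRP5 and LRP6. Its wild-type mean was 9.19 ± 0.17 (SD, n = 3) and its Frzb-/- mean 8.15 ± 0.31 (SD, n = 2), with 9.25 in animal 6. The log2 fold change of -1.05 (adjusted p = 0.00659) lay just past the fold threshold. It was no longer called when animal 17 or any one of the 3 wild-type mice was left out, at -0.82 without animal 17 and with adjusted p of 0.0123 to 0.0376, nor with all 3 labelled arrays, at -0.68 (adjusted p = 0.434). The gap junction gene Gja1 (0.51, adjusted p = 0.0171) and Mmp14, a membrane collagenase needed for osteocyte dendrites (0.89, adjusted p = 0.00258), stayed under the fold threshold. Fgf23, the phosphate hormone of osteocytes, was listed at 3.92 ± 0.17 (SD, n = 3) and 4.10 ± 0.10 (SD, n = 2), near the lower end of the scale.

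Of 10 measured receptors, relatives and regulators of sclerostin, Dkk1 was the only one called, near the 6.02% of all genes called lower, and the median was 0.04. Lrp4, which anchors sclerostin on the cell, had a log2 fold change of -0.26 (adjusted p = 0.332), and the co-receptors Lrp5 and Lrp6 had 0.12 and 0.28 (adjusted p = 0.644 and 0.125). Mef2c, a transcription factor that drives the Sost enhancer in bone, had -0.10 (adjusted p = 0.88). Sostdc1, the closest relative of Sost, had 0.66 (adjusted p = 0.0276). It was dim, with means of 4.73 in wild-type and 5.39 in Frzb-/- mice, as was Lrp5 with 5.52 and 5.65. The medians of the arrays were 7.32 to 7.45. Kremen1, of the same list, had 0.77 (adjusted p = 0.0112). None of 13 phosphate and mineralization genes was called by limma, with a median of 0.17, and 3 had an unadjusted p under 0.05, as 41.6% of all genes did. Fam20a, the pseudokinase partner of Fam20c, was nearest to passing with 0.89 (adjusted p = 0.00578). Ibsp was the only other SIBLING gene measured by name and had 0.16 (adjusted p = 0.399).

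Of 7 podoplanin partners, 1 was called lower and none higher, with a median of -0.11. With so few genes this is near the shares of all genes called (6.02% and 3.03%). Clec1b, the platelet receptor that binds podoplanin, fell from 10.21 ± 0.26 (SD, n = 3) to 7.32 ± 1.17 (SD, n = 2), a log2 fold change of -2.89 (adjusted p = 0.00466), with 10.50 in animal 6. Without animal 17 it was -2.07 (adjusted p = 0.0101), and it was also not called without any one of the 3 wild-type mice, with adjusted p of 0.0113 to 0.0171, or with all 3 labelled arrays, at -1.83 (adjusted p = 0.436). The ERM protein ezrin (Ezr), which links podoplanin to actin, had -0.93 (adjusted p = 0.0054), and the hyaluronan receptor Cd44 had -0.11 (adjusted p = 0.588). The neutrophil and erythroid markers given below fell in the same arrays. The part of marrow in the values of Clec1b and Ezr was not tested.

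Of 6 osteoblast markers limma called 0, and with so few genes the shares called over all genes (6.02% and 3.03%) would give about as many. For 1 of them limma gave an unadjusted p under 0.05, as it did for 41.6% of all genes. Their log2 fold changes ran from -0.10 for the transcription factor Sp7 to 0.62 for the phosphatase Alpl (adjusted p = 0.0234), with a median of 0.18. Both Frzb-/- arrays were above all wild-type arrays for Col1a1, Col1a2 and Alpl, as they were for 31% of all genes. Summed levels here and below add linear values, so that the brightest genes, here Col1a1 and Col1a2, weigh most. That of the 6 osteoblast markers lay at 15.88 to 15.96 on the log2 scale in wild-type and 16.12 to 16.17 in Frzb-/- mice. When each array was centred on these markers the log2 fold changes were -2.79 for Sost, -1.80 for Mepe and 1.01 for Pdpn, all called (adjusted p = 0.000153, 0.000123 and 0.00133). Of 5 hypertrophic chondrocyte, 7 articular chondrocyte, 7 osteoclast and 4 skeletal muscle markers limma also called 0, with 1, 2, 0 and 0 at an unadjusted p under 0.05 and medians of 0.17, -0.01, 0.05 and 0.23. The medians of these lists that lie near 0 depend on the scaling, and after centring on osteoblast markers that of the 13 other osteocyte genes was -0.06 in place of 0.16.

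Marrow genes fell strongly in the same arrays as Sost and Mepe. All 8 neutrophil markers and all 4 erythroid markers measured were called lower, against 6.02% of all genes, with medians of -2.14 and -2.64. The summed neutrophil level was 16.40 to 16.81 in wild-type and 14.54 to 15.02 in Frzb-/- mice, and the erythroid level 13.03 to 13.49 and 10.63 to 10.73. In animal 6 they were 16.61 and 13.48, within the wild-type range, while Sost in this animal was below its own. The B cell genes Ly6d, Ms4a1 and Cd79a were also under their wild-type ranges in animal 6. They were picked below by their likeness to Sost over all 6 arrays, animal 6 included, so this was built into the choice. Their log2 values there were 8.72, 8.53 and 8.91, against lowest wild-type values of 9.23, 9.08 and 9.23. Without animal 17, 2 of the 8 neutrophil and 3 of the 4 erythroid markers were called. The part of marrow in the falls of Sost and Mepe was not tested.

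Of 6 fibroblast markers 3 were called higher in the same arrays as Pdpn, against 3.03% of all genes. They were Thy1 (1.94, adjusted p = 0.00113), Dpt (1.77, adjusted p = 0.00251) and Lum (1.01, adjusted p = 0.00246). Pdgfra, Dcn and Col3a1 were not called, at 0.75, 0.75 and 0.70. The median of the 6 was 0.88, and the summed level was 15.02 to 15.25 in wild-type, 16.01 to 16.04 in Frzb-/- mice and 15.41 in animal 6. Of these markers 1 was called without animal 14, 0 without animal 17 by limma and 0 with all 3 labelled arrays. Of 3 lymphatic endothelial markers, Lyve1, which some macrophages make as well, was called higher (1.42, adjusted p = 0.00482), and the median was 0.17. Lyve1 was not called without animal 14 (1.47, adjusted p = 0.025), without animal 17 (1.37, adjusted p = 0.038), without wild-type animal 6-1 (1.35, adjusted p = 0.0171), with array weights (1.22, adjusted p = 0.0147) or with all 3 labelled arrays (1.14, adjusted p = 0.428). Prox1, which defines lymphatic endothelium, was listed at 3.08 in wild-type and 3.25 in Frzb-/- mice, near the lower end of the scale, and Flt4 had -0.06. The part of fibroblasts in the rise of Pdpn was not tested.

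**Figure D4:**
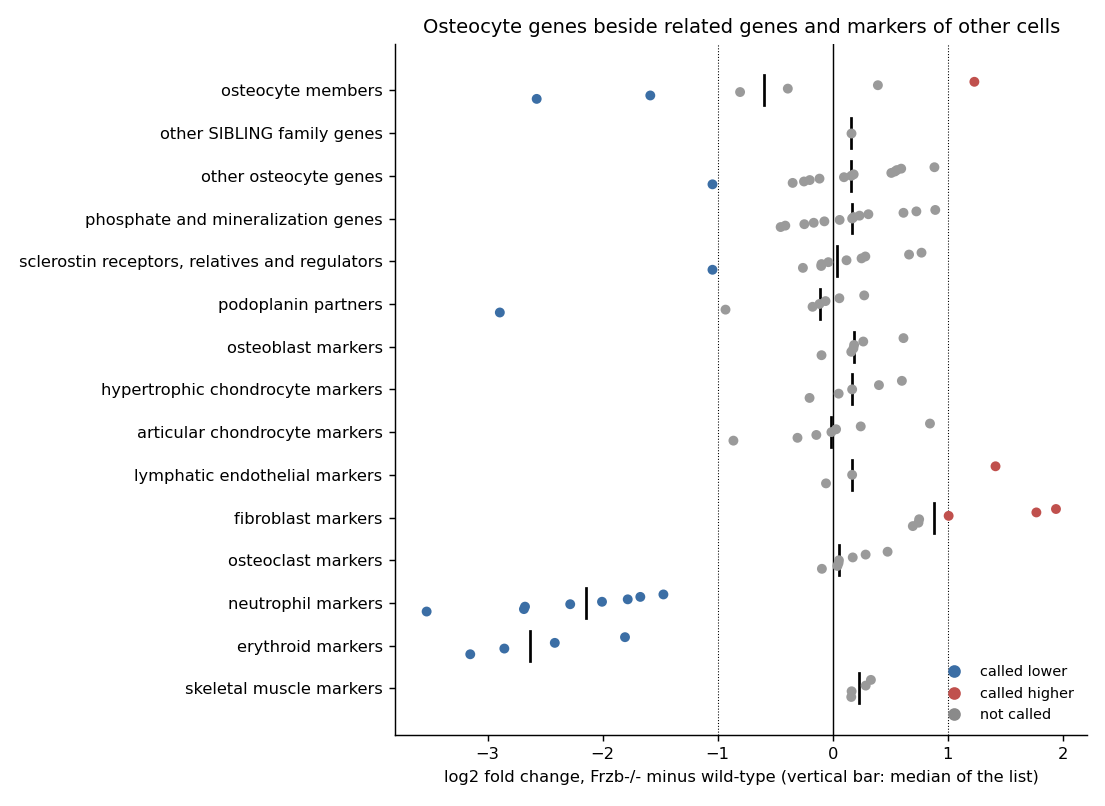
Log2 fold change of Frzb-/- minus wild-type mice for each osteocyte gene and each gene of the 14 lists, with a vertical bar at each list's median and dotted lines at -1 and 1. The osteoblast markers run from -0.10 to 0.62, while neutrophil and erythroid markers lie below -1 and fibroblast markers from 0.70 upward.

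The genes whose course over the 6 arrays was most like that of each osteocyte gene were found from values centred on each gene's own mean, by the root-mean-square difference in log2 units over 13816 genes. For Sost the nearest were Ly6d, Ms4a1 and Cd79a, which are genes of B cells, at 0.275, 0.346 and 0.378. In log2 units these were distant matches, as 0 genes lay within 0.2 of Sost, but such distances depend on a gene's own spread. That spread was 1.18 for Sost, 0.73 for Mepe, 0.40 for Dmp1, 0.43 for Phex, 0.57 for Pdpn and 0.22 for Fam20c. For Mepe the nearest were Mefv, Gatm and Btla, at 0.112, 0.119 and 0.125. Pdpn had close matches in Svep1, Mmp2 and Osmr, at 0.05 for each, and 45 genes lay within 0.1, against 69 for Fam20c and 11 for Phex. For Dmp1 they were Cblb, Spata13 and Paxbp1 (each at 0.11), for Phex Ccr1, Anp32a and Hps3 (0.06 to 0.07), and for Fam20c Nck1, Zfp1 and Smad6 (0.04 to 0.05). This likeness is a description over 6 arrays.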

How the data were processed

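The deposited table holds log2 RMA expression values, which the authors computed from Affymetrix mouse whole-genome arrays (affy 1.20.0 in the submitters' processing notes), without control and absent probe sets. RMA corrects background and fits all arrays to 1 distribution, so a broad fall of marrow genes can shift the others upward. Arrays have no read depth, and the number of mice limits precision. Probe sets of several genes (677) or none (4851) were not named. All probe sets were fitted with limma 3.58.1 in R 4.3.3 (lmFit, eBayes, two-sided) with Benjamini-Hochberg adjustment, the paper's thresholds, and the brightest probe set per gene by its mean over the 6 arrays. In a fit with 3 groups animal 6 stood alone. Figures used Python 3.11.15 and matplotlib 3.10.9. The fit was also run on simulated arrays drawn from its own model, which checks the code and not how well that model holds here.

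The members and the 14 gene lists were chosen with earlier results of these data known. Listed genes without a probe set of 1 gene, such as Spp1, Runx2 and Bglap, were not analysed here. Named are all members, Frzb, every called gene or else the brightest genes of a list, and the 3 genes most like each member. Other listed genes, such as Fgf23, Lrp5, Sostdc1, Fam20a, Ezr and Prox1, were named for their role or value after their values had been seen, and the neutrophil and erythroid markers are given as lists alone. Alternatives were other sets of arrays, cyclic loess, centring on osteoblast, osteoclast or articular chondrocyte markers, a filter on dim probe sets, other moderation, array weights, the mean over probe sets and other thresholds.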

Additional observations from a re-analysis of the deposited data

How the results depend on the processing

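Over 18 alternatives Sost ranged from -2.81 to -2.10, Mepe from -1.80 to -1.16 and Pdpn from 0.90 to 1.31, with adjusted p from 7.16e-05, 8.97e-05 and 0.000735 up to 0.428 for each. Leaving aside 4 of these, namely the fit with 3 groups and the any-fold thresholds, which cannot lose a call, and articular chondrocyte centring, Sost and Mepe were called in 12 of 14 and Pdpn in 11. With all 3 labelled arrays 0 osteocyte genes, 0 lower, 0 higher and 0 of their probe sets were called. On leaving out 1 array in turn the called genes numbered 0 to 3, with 0 to 2 lower, 0 to 1 higher and 0 to 3 probe sets, and the count was 0 without animal 17, where 4 of the 6 had an unadjusted p under 0.05 from limma, against 33.8% of all genes. On leaving out 1 array Dmp1 ranged from -0.84 to 0.0588 at its brightest probe set and from -1.03 to 0.0304 at its second, and it turned above 0 without animal 17. These fits hold fewer arrays, and the cause was not tested further. The calls of Thy1, Dpt, Lum and Lyve1 held in 12, 10, 7 and 9 of the 14 and those of Dkk1 and Clec1b in 9 each, and none of the 6 turned in direction in any of the 18. Phex was called after centring on osteoblast markers and at an adjusted p under 0.05 with any fold. Centring on osteoblast markers, and on osteoclast markers, which was added after seeing the data, moved the median of all probe sets from 0.02 to -0.20 and -0.12. Over all probe sets 717 were called higher and 1558 lower as reported, 409 and 2548 after the former centring and 532 and 2196 after the latter. Centring on articular chondrocyte markers, also added later, gave 1 spread for all probe sets, so its p is not given in these ranges. Over all probe sets 97 and 335 were called without animal 17, 355 and 1506 without animal 14, and 298 and 676 without wild-type animal 8-1, and at an adjusted p under 0.05 with any fold 3592 and 4532. At an adjusted p under 0.01 with any fold there were 1304 and 2222, among probe sets above the median 415 and 1004, and per gene with the mean over probe sets 386 and 778. No paired analysis was possible because the labels give no numbers that pair the mice. The file gives no detection call per array, so signal over background is unknown for dim probe sets such as the third of Fam20c.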
